A study of Xenopus laevis with 2 samples.

Results

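The Sox transcription factor genes of Xenopus laevis were followed in embryos collected before zygotic genome activation (ZGA). Members were all genes of the RefSeq table of assembly v10.1 whose symbol starts with sox and a number and ends in .L or .S, the suffixes for the 2 chromosome sets, L and S, of this tetraploid frog. This gave 34 genes of 44456 in the table, 17 on L and 17 on S chromosomes, all of them among the 34461 protein-coding genes on assembled chromosomes. Accessible DNA had been mapped by CATaDa, in which free Dam, a DNA methylase from bacteria, methylates the GATC motifs that it can reach. Wild-type embryos had received 2.3 ng of a Dam-only construct (Dam mRNA in the labels) by injection as 1 cell and were pooled whole, 500 per replicate, at the 256-cell stage, 4.5 h after fertilization. Both samples belong to this single group, and all cells of the embryo contribute to each value. Non-injected embryos were not analysed here, so no background without Dam stands beside the values.

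Sox proteins bind DNA through an HMG box related to that of the testis-determining factor SRY, and are sorted by sequence into groups named by letters. The SoxB1 factors Sox2 and Sox3 keep early cells pluripotent and promote neural fate together with POU factors, and Sox3 is one of the factors that help to start zygotic transcription in Xenopus. SoxB2 factors are mostly repressors in the nervous system, SoxC factors act in differentiating neurons, SoxD factors in cartilage and SoxE factors in the neural crest. Among SoxF factors, Sox17 specifies endoderm, while Sox7 and Sox18 act in blood vessels. Which of these genes were represented as RNA in the embryos was not measured by this assay.

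Each replicate was described by the authors' list of broad peaks, stretches in which reads were enriched over the background of the caller. Replicate 1 held 325974 peaks and replicate 2 held 277551. The lists carry no read counts, so sequencing depth is unknown, and a missing peak does not show that a site was closed. The narrowest peaks spanned 310 bp in replicate 1 and 349 bp in replicate 2, the least that a peak lying wholly inside a gene or window adds to its coverage. A peak that crosses an edge adds only part of its width. The study describes the 2 replicates as independent and biological, and whether the pools came from separate clutches is not given in the sources used here. No p-values are given, because a single group offers no condition to compare and genes are not replicates.

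The window of each member was its annotated span plus 10 kb on each side. In these windows, replicate 1 had 160 distinct peaks and replicate 2 had 122. At least 1 peak was present in both replicates for 31 of the 34 members (91.2%), beside 96.8% of all protein-coding genes. The windows were covered by peaks to 4.74% in replicate 1 and 4.16% in replicate 2 on average over members, a mean of 4.45% ± 0.414 (SD, n = 2). Over all protein-coding genes coverage was 5.32% and 4.99%, a mean of 5.15% ± 0.234 (SD, n = 2). With these 10 kb flanks, Sox windows were covered less in each replicate, while the spread between genes was wide, and 19 of 34 members were below the protein-coding median of 4.96%. At the extremes, 8 members lay in the lowest 10% of protein-coding genes by window coverage, namely sox1.S, sox3.L, sox11.L, sox12.S, sox4.L, sox5.L, sox17b.1.S and sox15.L. In the highest 10% there was 1 member, sox21.L. Window length was not matched in these comparisons. Spans of at most 5 kb were found in 22 of 34 members, beside 5979 of 34461 protein-coding genes. Whether shorter windows account for the low ranks or the missing peaks was not tested. The windows of sox17a and sox17b.1 overlap on both 6L and 6S, with 10292 bp and 12844 bp between the genes, so these neighbours share bases.

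**Figure D1:**
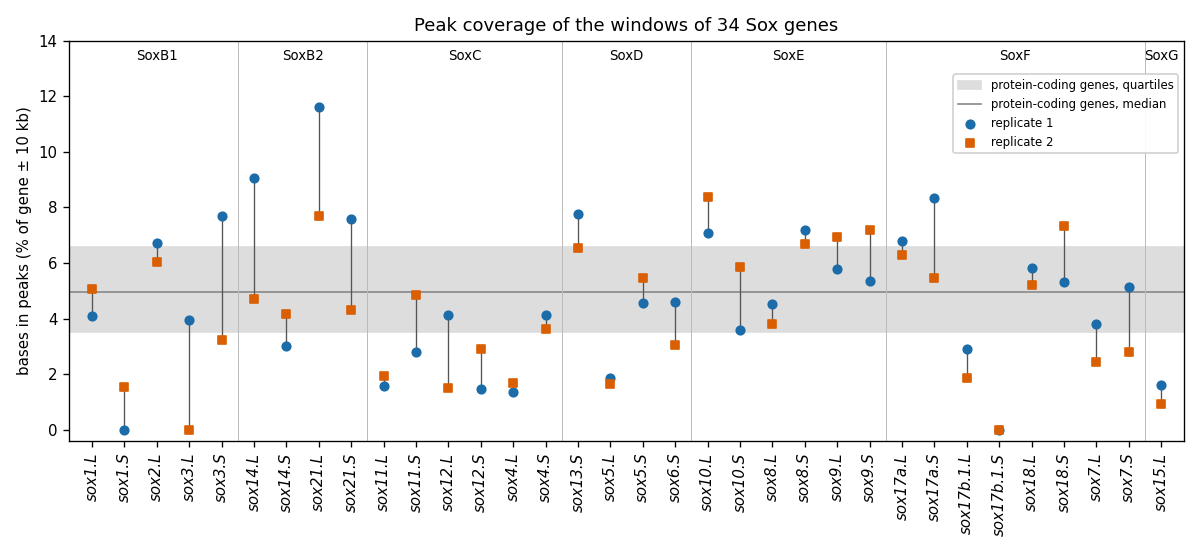
Bases in peaks, in percent of the gene span plus 10 kb on each side (y axis), for each of 34 Sox genes (x axis), sorted by Sox group, with 1 point per replicate joined by a line. The grey band and line are the quartiles (3.51% and 6.56%) and the median (4.96%) of all protein-coding genes; sox21.L is highest and sox17b.1.S has no peak in either replicate.

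The difference between genes and their surroundings was larger. Of the 34 members, 22 had an annotated span of at most 5 kb (720 bp to 4979 bp, median 2550 bp), among them all SoxB and SoxC genes. This limit was chosen after the values had been seen. Within these short spans, peaks covered 15.9% of all bases in replicate 1 and 15.2% in replicate 2, a mean of 15.5% ± 0.510 (SD, n = 2). In their 10 kb flanks, coverage was 3.25% and 2.29%. For the 5979 protein-coding genes of at most 5 kb, with a median span of 2704 bp, spans were covered to 7.05% and 6.49% and flanks to 5.44% and 5.15%. Short Sox genes thus had the higher coverage in the span and the lower coverage in the flanks in each replicate. Span coverage exceeded flank coverage in 18 of 22 short members in replicate 1, in 16 in replicate 2 and in 15 in both, beside 26.7% of short protein-coding genes in both.

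A recurring peak, here a stretch within the span that belonged to peaks of both replicates, was found in 15 of the 22 short members (68.2%), beside 30.3% of all protein-coding genes of at most 5 kb. Moving the limit to 4 kb or 6 kb gave 15 of 21 members (71.4%, beside 27.1%) and 16 of 24 (66.7%, beside 32.4%). Among the 12 members with longer spans, 10 had a recurring peak, beside 81.5% of longer protein-coding genes. Over all lengths this came to 25 of 34 members (73.5%), beside 72.6% of protein-coding genes. A share above that of the gene table was thus seen in the short members, while the longer ones lay close to it. Dam marks only GATC motifs, and how motif density or CpG content differ between these spans and their flanks was not tested.

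**Figure D2:**
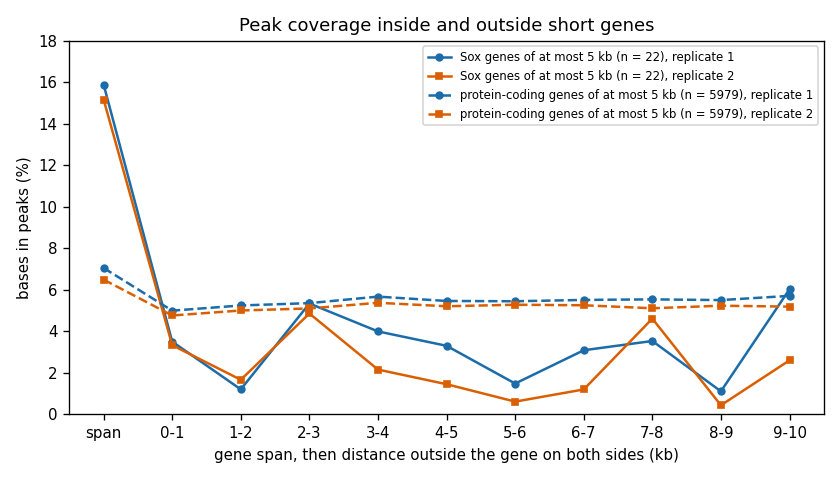
Percent of bases in peaks (y axis) in the gene span and in 1 kb steps outside the gene on both sides (x axis), for 22 Sox genes of at most 5 kb (solid) and 5979 protein-coding genes of at most 5 kb (dashed), in each replicate. Sox spans reach 15.9% and 15.2%, and the first kilobase outside drops to 3.50% and 3.33%.

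Coverage fell off sharply at the edge of the short members. The first kilobase outside the genes was covered to 3.50% in replicate 1 and 3.33% in replicate 2, and the next kilobase to 1.20% and 1.66%. Between 2 and 3 kb it came back to 5.34% and 4.85%. Short protein-coding genes had 4.99% and 4.76% in the first kilobase. Sox steps also went up and down farther out, with 1.10% and 0.434% between 8 and 9 kb. Between 9 and 10 kb they had 6.025% and 2.60%. Each Sox step pools only 22 genes, so a few peaks set its value, and the low second kilobase is not particular to the gene edge. A peak within 1 kb of either gene end was present in both replicates for 19 of 34 members (55.9%), beside 35.7% of all protein-coding genes. This window stands in for the promoter, since strand was not used here, and in the shortest genes it takes in most of the span. These shares were not split by span length, so how far they restate the span peaks of short members was not tested.

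**Figure D3:**
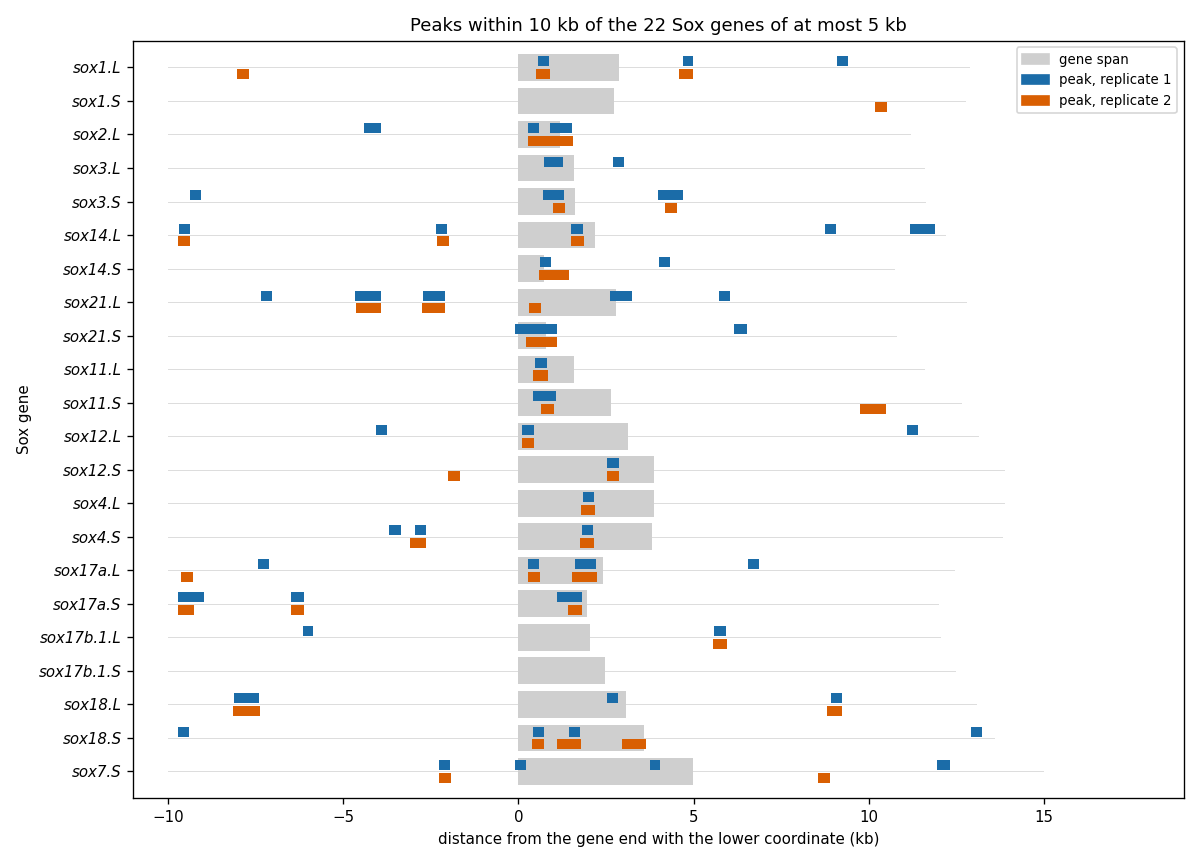
Positions of peaks of replicate 1 (blue) and replicate 2 (orange) within 10 kb of each of 22 Sox genes of at most 5 kb (y axis), as distance in kb from the gene end with the lower coordinate (x axis), with the gene span in grey. In 15 genes, peaks of both replicates coincide within the grey span, and the flanks are sparse.

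SoxB1 genes showed the contrast between span and flank, but not in every copy. The pluripotency gene sox2.L (gene ID 398000; 5L, 114959594 to 114960783) was covered over 51.5% of its span in replicate 1 and 76.7% in replicate 2. Its flanks were covered to 4.04% and 1.84%. Replicate 1 had 2 peaks over the gene, which replicate 2 joined into 1 peak of 1281 bp. The mean span coverage of sox2.L exceeded that of 99.3% of short protein-coding genes. Its span is 1190 bp, below their median of 2704 bp, so 1 peak fills more of it. The fold enrichment of these peaks was 4.84 and 3.12 in replicate 1, beside a median of 4.34 over all peaks. In replicate 2 it was 4.50, beside 4.50.

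The spans of the copies of the ZGA factor gene sox3 were covered to a similar extent in replicate 1 and differed in replicate 2. In sox3.S (gene ID 399335; 8S, 63299041 to 63300658), 38.3% of the span lay in a peak in replicate 1 and 21.6% in replicate 2. In sox3.L (gene ID 398329; 8L, 46991470 to 46993062), the span was covered to 34.3% in replicate 1 and not at all in replicate 2. The peak of sox3.L in replicate 1 ran from 731 to 1277 bp above the lower gene end, and that of sox3.S from 692 to 1310 bp. Whether these are the same part of the gene is not known, since the orientation of the copies was not used. In replicate 2, no peak was listed over 43.6 kb around sox3.L. That list is the shorter one and its depth is unknown, so the missing peak does not show that the copies differ in accessibility. In replicate 1 the sox3.L peak had a -log10 q of 3.29 and the sox3.S peak, which recurred, one of 2.93, both under the median of 4.88 over all peaks of that list.

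The SoxB1 genes sox2 and sox3, grouped beforehand as maternal, were also compared with the other Sox genes. The study describes a maternal contribution for sox3 but not for sox2, and maternal RNA was not measured here. Under these names there were 3 genes, sox2.L, sox3.L and sox3.S. Their windows were covered to 6.12% in replicate 1 and 3.09% in replicate 2, and those of the other 31 members to 4.61% and 4.26%. The difference was 1.51 percentage points in replicate 1 and -1.17 points in replicate 2, so it changed sign between replicates and no order can be given. In the gene spans alone, sox2 and sox3 were covered to 41.4% and 32.8% and the others to 13.6% and 12.9%, higher in both replicates. The highest of the 3 was sox2.L, with 51.5% and 76.7%, while sox3.L had no span peak in replicate 2. High span coverage was not particular to these genes. The span of sox17a.L was covered to 37.3% and 43.6%, and SoxB2 spans to 33.9% and 30.2% on average over genes. That SoxB2 average rests largely on sox21.S, with 100% and 72.4%. By the mean of both replicates, the median gene was at 16.5% in SoxB2 and at 29.9% for sox2 and sox3. The 3 spans of sox2 and sox3 are at most 1618 bp long. Spans of the other members reach 229099 bp, so span length differs along with coverage.

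The remaining SoxB1 gene, sox1, which acts in neural progenitors, had in its L copy the peak with the highest fold enrichment of all members in replicate 1, and in replicate 2 the next highest after that of sox10.S. In sox1.L (gene ID 108708457; 2L, 121175987 to 121178847), a peak from 121176538 to 121176851 had a fold enrichment of 16.4 in replicate 1 and 11.0 in replicate 2, where fold enrichment is the authors' ratio of read pileup over background. In sox1.S (gene ID 734174; 2S, 107239335 to 107242075), the span held no peak in either replicate. Its window was empty in replicate 1, within a stretch of 30.3 kb without peaks, and held 1 peak 7440 bp outside the gene in replicate 2.

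SoxB2 genes had the highest mean window coverage of any group, 6.52% ± 1.83 (SD, n = 2). They led in replicate 1 with 7.81%, but with 5.23% came after the SoxE genes in replicate 2. In sox21.L, 11.6% of the window lay in peaks in replicate 1 and 7.69% in replicate 2, the highest mean of all members and above 96.0% of protein-coding genes. Of its window peaks, 1 of 5 in replicate 1 and 1 of 3 in replicate 2 lay in the span, and these 2 did not coincide. The flanks were covered more than the span in replicate 1, to 12.5% against 5.58%. In replicate 2 they were covered less, to 7.02% against 12.6%. Its copy sox21.S, annotated with only 789 bp, was covered over 100% of its span in replicate 1 and 72.4% in replicate 2. In sox14.L, a peak in the span had a fold enrichment of 8.04 and 5.23, and in sox14.S, the lowest of this group by window, 10.7 and 6.41.

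SoxC genes stood at the other end. Their windows were covered to 2.57% in replicate 1 and 2.76% in replicate 2, the lowest mean of the groups with more than 1 gene (2.66% ± 0.128, SD, n = 2). Nevertheless all 6 SoxC genes, each of at most 5 kb, had a recurring peak within the span. Such a peak was found in 15 of the 22 short members and in 30.3% of protein-coding genes of at most 5 kb. Both copies of sox4, a gene of neuronal and lymphoid progenitors in mouse, carried a strong one. In sox4.L (gene ID 379688; 6L, 100511919 to 100515776), it had a fold enrichment of 14.5 and 11.0 and was the only peak of the whole window in either replicate. In sox4.S (gene ID 779042; 6S, 81628505 to 81632309), it had a fold enrichment of 11.5 and 9.02. The peak of replicate 1 began 1835 bp above the lower gene end in sox4.L and 1804 bp in sox4.S.

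In sox11.L, the single peak had a fold enrichment of 4.57 in replicate 1 and 5.36 in replicate 2, and in sox11.S the recurring peak had 3.73 and 3.38. Counted from the lower gene end, these peaks ran from 466 to 804 bp in sox11.L and from 429 to 1066 bp in sox11.S in replicate 1. The recurring peak of sox12.L had a fold enrichment of 5.52 and 6.59, and that of sox12.S, which had the same coordinates in both replicates, 6.95 and 8.32. Reads from stretches that are alike between L and S copies or between HMG boxes may have been placed on either, and the lists do not show how the aligner treated them.

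SoxD genes are long, and peaks were spread along them. The window of sox13.S, which held 24 peaks in replicate 1 and 17 in replicate 2, was covered to 7.76% and 6.55%. That of sox5.L held 8 and 7 peaks and was covered to 1.86% and 1.66%, the lowest of this group. The flanks of SoxD genes were covered more than the spans, to 7.51% and 6.32% against 4.28% and 3.79%. Both copies of sox5 carried a shared peak outside the lower gene end. It lay 501 bp away at sox5.L, with a fold enrichment of 9.04 and 7.69, and 1250 bp away at sox5.S, with 9.72 and 8.77. At sox6.S, a shared peak with a fold enrichment of 8.996 and 9.19 lay 7830 bp outside the gene, in a window that also holds c11orf58.S.

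SoxE genes, which include sox10, a regulator of neural crest and glia, had a window coverage of 5.59% in replicate 1 and 6.48% in replicate 2. The highest of them was sox10.L with 7.07% in replicate 1 and 8.38% in replicate 2, and the lowest was sox8.L with 4.54% and 3.81%. No peak overlapped the span of sox8.L in either replicate, although one began 23 bp and 17 bp beyond it. In sox10.S (gene ID 108715787; 4S, 101370889 to 101379741), a peak from 101372346 to 101372711 had identical coordinates in both replicates, with a fold enrichment of 12.3 and 11.2. It was flanked by shared peaks 5297 bp below and 2713 bp above the gene, with 11.3 and 6.09 and with 12.0 and 6.73. The window of sox10.S thus held 3 of the stronger peaks of the Sox windows, 1 of them in the gene. That window also holds polr2f.S and LOC121393348, and to which gene the outer peaks belong was not tested. At sox9.L (gene ID 494585; 9_10L, 21853266 to 21875574), a gene of cartilage and neural crest, the strongest peak lay 746 bp outside the gene. It ran from 21852187 to 21852520 in replicate 1, with a fold enrichment of 13.7 and 9.97. In sox9.S, whose span is 5594 bp, 18.8% and 19.5% of the span lay in peaks, beside 1.61% and 3.74% of the flanks. Although just above the limit for short genes, it showed the same contrast between span and flank.

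SoxF genes split by gene. The endoderm gene sox17a was covered over 37.3% of its span in replicate 1 and 43.6% in replicate 2 for the L copy (gene ID 397966; 6L, 122899051 to 122901477). For sox17a.S (gene ID 398765; 6S, 100710610 to 100712577), the highest SoxF gene by window, these values were 36.5% and 20.1%. The adjacent sox17b.1, a gene of the same endodermal programme, had no peak in the span of either copy. At sox17b.1.S (gene ID 397967; 6S, 100725422 to 100727882), the window was empty in both replicates, within a stretch of 30.1 kb without peaks in each. The nearest peak on the lower side was the one in sox17a.S, 13004 bp away in both replicates. The window of sox17b.1.L was covered to 2.93% and 1.87%, with the nearest peak 3541 bp and 3502 bp from the gene.

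The vascular genes gave less stable values. In sox7, span peaks were listed in replicate 1 for both copies, covering 5.71% of sox7.L and 10.5% of sox7.S, and none in replicate 2. In sox18.S, peaks covered 17.8% of the span in replicate 1 and 47.0% in replicate 2. In sox18.L they covered 10.09% in replicate 1 and none in replicate 2, so only the S copy had a recurring peak. The single SoxG gene, sox15.L, was covered over 1.63% and 0.943% of its window, and no peak was listed in its flanks.

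**Figure D4:**
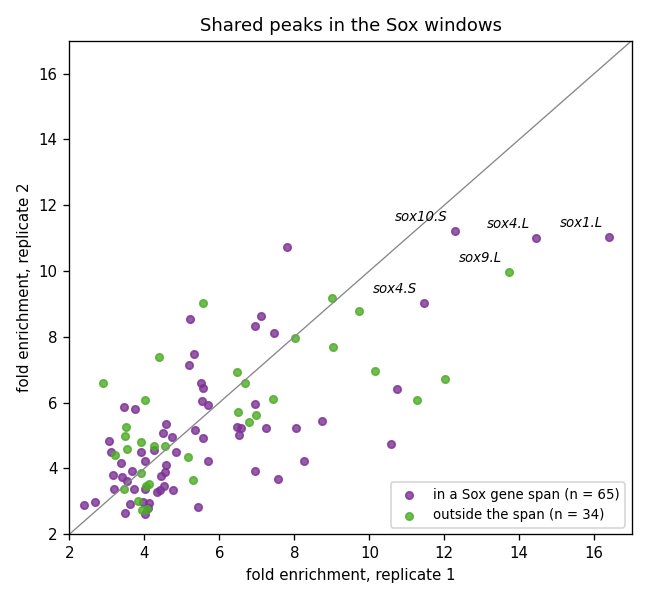
Fold enrichment in replicate 1 (x axis) and replicate 2 (y axis) of the 99 replicate 1 peaks in Sox windows that overlap a replicate 2 peak, in a Sox span (65, purple) or outside it (34, green), with the line of equal values. The 5 peaks with the highest geometric mean are named, and all 5 lie below the line.

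Peaks in the Sox windows were otherwise much like those of the whole lists. In replicate 1, 99 of 160 (61.9%) overlapped a peak of replicate 2, beside 66.6% of all peaks. In replicate 2, 97 of 122 (79.5%) overlapped a peak of replicate 1, beside 77.8%. Within spans, 65.0% of replicate 1 peaks and 83.1% of replicate 2 peaks were shared, and within flanks 56.7% and 73.3%. The median fold enrichment was 4.34 in replicate 1 and 4.49 in replicate 2, beside 4.34 and 4.50 for all peaks. Of the 99 shared peaks, 3 had a fold enrichment of at least 10 in both replicates, those in sox1.L, sox4.L and sox10.S. These 3 peaks, with those of sox9.L and sox4.S, were all higher in replicate 1, as were 57 of the 99. The same shares over all shared peaks are not given here, so whether either count is unusual is not known. The highest fold enrichment in the Sox windows was 16.4 in replicate 1 and 11.2 in replicate 2, beside 27.8 and 27.4 over all peaks.

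The L and S copies were compared over the 15 pairs with both members in the table. The members without a listed partner were sox2.L, sox6.S, sox13.S and sox15.L. The S window was covered more in both replicates for 6 pairs (40%), beside 42.3% of 7762 protein-coding pairs. The L window was covered more in both for 5 pairs (33.3%), beside 31.5%. In the other 4 pairs the sign changed between replicates. The mean difference, S minus L, was -0.54 percentage points in replicate 1 and 0.42 points in replicate 2. Over all pairs, it was 0.35 and 0.40 points. For Sox genes as a family, no subgenome was therefore ahead.

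**Figure D5:**
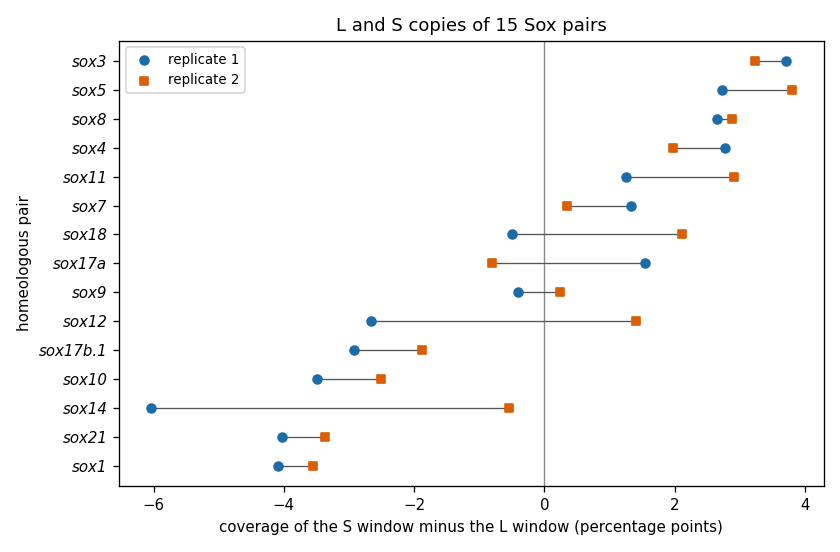
Coverage of the S window minus that of the L window in percentage points (x axis) for 15 homeologous Sox pairs (y axis), with 1 point per replicate joined by a line. In 6 pairs both points lie to the right of 0, in 5 pairs to the left, and in 4 pairs on opposite sides.

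Some single pairs differed in the same direction in both replicates. The largest differences toward S were at sox3, by 3.71 and 3.23 points, at sox5, by 2.72 and 3.80 points, and at sox8, by 2.66 and 2.88 points. Toward L they were at sox1, with -4.09 and -3.55 points, at sox21, with -4.03 and -3.38 points, and at sox14, with -6.04 and -0.54 points. The value of sox14 rests mainly on replicate 1. Averaged over replicates, the differences of the Sox pairs ran from -3.82 to 3.47 points (SD between pairs 2.62). Those of all 7762 protein-coding pairs ran from -10.7 to 11.9 points (SD between pairs 2.68). Differences of the size seen at these Sox pairs are thus within the usual spread. Where both copies were at most 5 kb, 5 of 10 pairs (50%) had a recurring peak in the span of both, beside 15.7% of 502 such protein-coding pairs. These were sox4, sox11, sox12, sox14 and sox17a. In 4 pairs a single copy had one, in sox1.L, sox3.S, sox18.S and sox21.S, and in sox17b.1 neither copy did.

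Lists of related genes were set beside the Sox genes, chosen by name. The first held 18 genes that work with Sox proteins, the POU factor genes pou5f3.1, pou5f3.2 and pou5f3.3, the endoderm factors gata4, gata5 and gata6, and ctnnb1, pax6 and mitf. Their windows were covered to 5.35% in replicate 1 and 5.44% in replicate 2, beside 5.32% and 4.99% for all protein-coding genes. A recurring peak in the span was found in 12 of 18, beside 72.6% of protein-coding genes. Spans in this list ran from 3586 bp to 163943 bp. Such a peak was found in 30.3% of protein-coding genes of at most 5 kb and in 81.5% of longer ones. No order is therefore given. The most covered was pou5f3.3.S with 9.54% and 13.1%, while pou5f3.3.L had 2.41% and no peak in replicate 2. The pou5f3 genes are neighbours, with pou5f3.3.S ending at 27582244 on 8S and pou5f3.2.S starting at 27584027. Their windows overlap, as do those of the L copies, so shared bases count more than once in the list mean. The coverage of such a window is not that of 1 gene alone. The least covered was pax6.L, a gene of eye and brain development, with 1.38% and 0.712%. The second list held 6 TCF and LEF genes, whose proteins carry a related HMG box. Their windows were covered to 4.51% and 4.12%, and all 6 had a recurring peak in the span. Their spans ran from 39277 bp to 152845 bp in length, and 81.5% of protein-coding genes over 5 kb had such a peak. Spans in these lists are mostly long, so they do not serve as a scale for the short Sox genes.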

How the data were processed

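Peaks were deposited by the authors for 2 replicates of Dam-injected embryos. The authors had cut methylated GATC with DpnI, amplified adapter-ligated fragments, mapped paired reads to Xenopus laevis v10.1 with bowtie2 in the damidseq pipeline, and run MACS 3.0.1 in broad mode on each library by itself. The control and cutoff of the caller are not given in the sources used here. Deposited values per peak were start and end, a score (not used), the ratio of pileup to background (fold enrichment), and −log10 p and −log10 q. Fold enrichment, p and q are averages over the region.

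Positions were counted from 1 and set against a RefSeq gene table of the same assembly with Python 3.11.15, numpy 2.4.6, pandas 2.3.3 and matplotlib 3.10.9. The table gives neither strand nor exons, and no sequence was read, so positions in exons, introns or promoters were not determined, and stretches within 1 kb of a gene end were used in place of promoters. The group sox2 and sox3 had been planned with 4 genes, but sox2.S is no symbol of the table. Windows reached 10 kb beyond the gene, cut at chromosome ends. Coverage is the percent of bases in peaks, and peaks were shared from 1 bp in common. The procedures were tested on simulated peaks, with 0 mismatches to a count base by base over 300 windows.

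No test was run, since there is 1 group of 2 samples. Members, groups and lists were chosen with earlier results of these data known. Named genes were sox2 and sox3, the highest and lowest of each group by window coverage, the 3 pairs that differed most in each direction with 1 sign, the 5 strongest shared peaks (geometric mean over both replicates) and members with an empty window; others were named after their values were seen. Alternatives were a −log10 q of at least 2, the upper 50% by fold enrichment, flanks of 5 and 20 kb, other overlap and grouping rules, and each replicate alone.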

Additional observations from a re-analysis of the deposited data

How the results depend on the processing

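Of 41 values recomputed from both replicates, 26 stayed within 1.5 times (counts) or within the spread of the replicates (means), 9 moved further and 6 changed sign. Each value that changed sign was a difference that already had opposite signs in the 2 replicates or was near 0. For sox2 and sox3 minus the other members (0.17 percentage points), restricting both lists to their upper 50% by fold enrichment gave -2.18 (-1.97 and -2.40 in the replicates). Flanks of 20 kb gave -0.80 (-0.77 and -0.83), the addition of sox1 -0.72, and flanks without the span -1.24. Each of these was negative in both replicates, whereas 5 kb flanks gave 2.74, positive in both (5.12 and 0.35). The direction thus depended on the setting. Replicates taken singly gave -1.17 to 1.51. For S minus L (-0.06 points), the upper 50% gave 0.40, toward S in both replicates (0.30 and 0.49). Flanks of 20 kb gave -0.63, toward L in both replicates (-0.61 and -0.65). Flanks of 5 kb gave 0.058, and single replicates gave -0.54 to 0.42. Window coverage went to 2.24% with the upper 50% of peaks, which removes peaks by construction, and to 5.70% with 5 kb flanks, of which the spans form a larger share. Coverage over all protein-coding genes at these settings is not given here. The lower coverage of Sox windows is therefore shown only for 10 kb flanks and the full lists. Median fold enrichment rose to 4.59 when -log10 q had to reach 2 and to 5.79 with the upper 50%, both by construction. The coverage of partner and TCF/LEF windows, 5.12%, was 4.82% at that -log10 q, 2.75% with the upper 50%, 4.82% with 5 kb and 5.33% with 20 kb. The recurring peaks of short members, an alternative set added after seeing the data, numbered 15 of 22 with a -log10 q of at least 2 (beside 29.0%) and 12 with the upper 50% (54.5%, beside 15.0%). In replicate 1 alone, 19 short members (86.4%) had a peak in the span, beside 41.5% of short protein-coding genes. In replicate 2 alone there were 16 (72.7%), beside 36.9%. Sharing between replicates has no value with 1 list. No paired analysis was possible because the series holds 1 group. Depth is unknown, so the lower number of peaks in replicate 2 limits what an empty window there shows.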

Other observations

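In 23 of 34 Sox windows, no other gene of the table was found. The same share over all protein-coding genes is not given here, so whether this is unusual is not known. The window coverage of these 23 members had medians of 4.54% (replicate 1) and 4.18% (replicate 2). The other 11 windows, which held for example polr2f beside both copies of sox10 and tbc1d20.1 beside both copies of sox12, had medians of 4.58% and 5.23%. Flank coverage had medians of 3.23% and 3.11% without another gene and 3.11% and 3.57% with one.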
